A study of Homo sapiens with 4 samples.

Results

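The microRNA machinery genes examined here were DROSHA, DGCR8, DICER1, AGO1, AGO2, AGO3, AGO4, TNRC6A, TNRC6B and TNRC6C, 10 of the 20046 protein-coding genes of GENCODE. They were chosen by name, and every m6A peak whose summit, the point of highest signal, lay in their gene bodies was taken. This gave 35 of 24607 peaks in replicate 1 and 24 of 19318 peaks in replicate 2. The peaks came from meRIP-seq, in which an antibody to N6-methyladenosine (m6A) pulls down RNA fragments that are then sequenced, and their pile-ups are called as peaks. The cells were OE-19, an established line of adenocarcinoma of the esophagogastric junction, with no knockdown or drug named in the labels. The series held 2 m6A immunoprecipitation (IP) replicates and 2 input replicates, and only the IP replicates had peak lists analysed here. The study calls the replicates biological, but neither it nor the labels say that they were separate cultures, so the spread between them may be partly technical.

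MicroRNAs are cut from primary transcripts by the nuclear microprocessor, formed by the RNase DROSHA and its RNA-binding partner DGCR8, and the exported hairpins are trimmed by the RNase DICER1. The mature strand is loaded into an Argonaute protein (AGO1 to AGO4), and the TNRC6 scaffold proteins link Argonaute to the deadenylases that shorten the target mRNA. The m6A writer complex methylates adenines in a short consensus of which GGAC is a common form, and m6A is known to gather in long internal exons and around stop codons.

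m6A peaks were found on the exons of all 10 genes in replicate 1 and of 8 genes in replicate 2. DGCR8, DICER1, AGO2, AGO3, AGO4, TNRC6A, TNRC6B and TNRC6C had exonic peaks in both replicates, whereas DROSHA and AGO1 had them in replicate 1 alone. Over all protein-coding genes, 31.8% had exonic peaks in both replicates. Among the 4589 genes whose exonic length fell between the shortest and the longest of these genes (7326 and 22151 nt) the share was 47.8%. These genes were long, with a median exonic length of 13505.5 nt against 4416 nt over all protein-coding genes. Expression was not used, so its part in these counts was not tested. The count of 8 fell to 7 at a q-value of 1e-05 or less, where AGO4 was lost, and to 5 at a fold enrichment of 5 or more, where AGO2, AGO3 and AGO4 were lost. Shares over all genes at these cutoffs are not given here, so the losses cannot be set against the lists as a whole.

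The strength of a peak was read as the fold enrichment deposited by the authors, the ratio of signal at the summit to the background of the peak caller. Exonic peaks of the 10 genes ranged from 1.90 to 17.9 in replicate 1 (32 peaks, median 6.28) and from 2.71 to 13.9 in replicate 2 (22 peaks, median 5.66). The medians over all exonic peaks were 5.30 and 4.82. The plot of fold enrichment by gene shows that the highest values were in the TNRC6 genes, whereas every peak of AGO1 and AGO2 lay below the median of its list. Peaks of the replicates that were each other's largest overlap were paired, and the geometric mean of the pair's fold enrichments ran from 5.48 to 15.8 over 10 TNRC6 pairs (median 8.33). It ran from 3.19 to 6.47 over 4 Argonaute pairs (median 4.54) and from 4.77 to 9.63 over 5 DGCR8 and DICER1 pairs (median 6.72). These family differences were not tested, since peaks of a gene are not replicates.

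**Figure D1:**
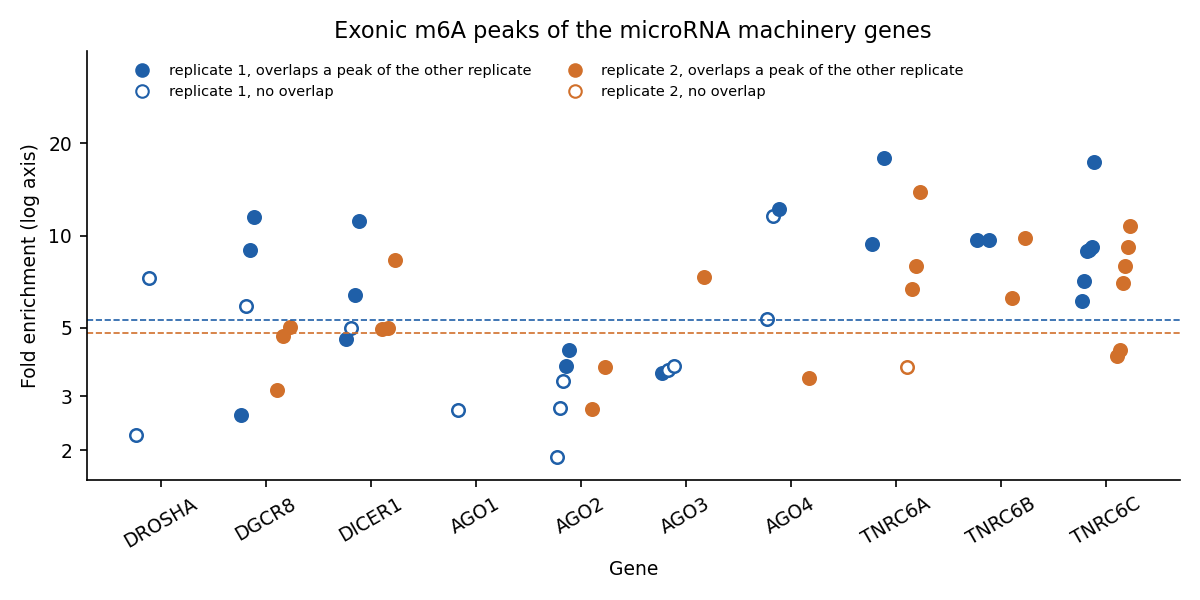
Fold enrichment (log axis) of each exonic m6A peak, by gene, in replicate 1 (blue) and replicate 2 (orange). Filled points overlap a peak of the other replicate, open points do not, and the dashed lines mark the medians over all exonic peaks, 5.30 and 4.82; the highest points belong to TNRC6A and TNRC6C, and AGO1 and DROSHA have open points only.

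In replicate 1, 20 of the 32 exonic peaks (62.5%, exact 95% binomial interval 43.7% to 78.9%) overlapped a replicate 2 peak by at least 1 bp, close to the 60.2% of all its exonic peaks. In replicate 2, 21 of 22 (95.5%, interval 77.2% to 99.9%) overlapped a replicate 1 peak, against 95.0% over all exonic peaks. These intervals cover counting error only. The 12 replicate 1 peaks without a partner had a median fold enrichment of 3.71, and the 20 with one had 8.99. Over all exonic peaks of replicate 1 the corresponding medians were 4.05 and 6.54. Of the 19 exonic pairs, 14 were higher in replicate 1 and 5 in replicate 2. Over all 11741 exonic pairs, 80.0% were higher in replicate 1. The median log2 ratio was 0.39 (SD 0.63 over the 19 pairs), beside 0.43 over all exonic pairs. The summits of a pair lay a median of 24 bp apart, beside 26 bp over all exonic pairs, and 14 of the 19 pairs lay within 50 bp.

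**Figure D2:**
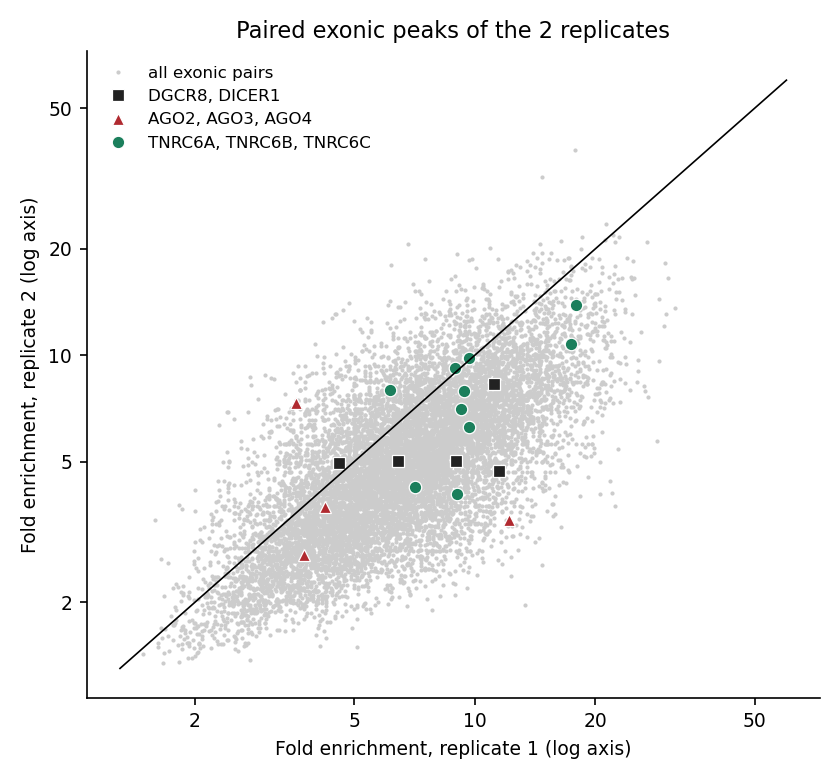
Fold enrichment of paired exonic peaks in replicate 1 (x axis) and replicate 2 (y axis), both on log axes, for all 11741 pairs (grey) and the 19 pairs of the microRNA machinery genes (squares, triangles and circles). The line marks equal values, and 14 of the 19 pairs lie below it, beside 80.0% of all pairs. Of the 19, the pairs farthest from it on either side are that of AGO4 below (12.2 and 3.43) and that of AGO3 above (3.57 and 7.33).

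DROSHA (ENSG00000113360.17, hg38 chr5:31400494-31532196, minus strand), the nuclear RNase, had 2 peaks in replicate 1 and none in replicate 2. The stronger had a fold enrichment of 7.25 (−log10 q of 11.3) and a summit 13 nt past the start of the stop codon, at chr5:31401378-31401517. The weaker, at 2.25, lay in the CDS part of exon 5 of 36. The stop codon peak stood above 71.2% of the exonic peaks of its list by fold enrichment, and yet replicate 2 lists nothing over it. Of the exonic replicate 1 peaks with a −log10 q within 10% of this value, 59.5% overlapped a replicate 2 peak, and of those near the weaker peak (−log10 q of 2.12), 16.6%. The stop codon peak of DROSHA held no GGAC.

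DGCR8 (ENSG00000128191.17, chr22:20080221-20111877, plus strand), which recognises the primary hairpin, carried its strongest peaks near the start codon and in the 3′ UTR. The peak in exon 2 (997 nt) had fold enrichments of 8.98 and 5.04 in replicates 1 and 2, with summits 12 and 15 nt upstream of the start codon. The peak in the 3′ UTR had 11.5 and 4.71, with summits 238 and 233 nt after the stop codon. Both pairs were thus stronger in replicate 1, by log2 ratios of 0.83 and 1.29, and the 2 replicates placed each summit within 5 bp of each other. Farther along the 3′ UTR, weak peaks of 2.60 and 3.14 had summits 1089 and 940 nt after the stop codon and were shared without forming a pair. A replicate 1 peak of 5.91 lay in an exon outside the transcript with the longest CDS and had no partner. For DGCR8, 1 peak per list also lay over an exon of ENSG00000243762 on the other strand, and the lists carry no strand.

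The DGCR8 message is itself a carrier of microRNA hairpins, which the microprocessor is known to cut, so the hairpins were set against the exon 2 peak. Both annotated hairpins of the exon overlapped it in both replicates. The peak was 900 nt wide in replicate 1 and 546 nt in replicate 2, in an exon of 997 nt. The overlap is thus not particular to the hairpins. MIR3618, in the 5′ UTR, had 77 of its 88 nt in the replicate 1 peak and 39 in the replicate 2 peak. MIR1306, which lies in the CDS, had all 85 nt in both peaks, 106 and 109 nt from the summits. It held 2 GGAC, and the MIR3618 hairpin held none. Of 173 hairpins in exons of protein-coding genes, 16 (9.25%) overlapped a peak in both replicates, and these 2 were among them. The 173 were counted whether or not their exon had a peak, and these 2 lie under the same peak. The mature microRNAs are shown because their coordinates (GRCh38.p14, RefSeq) place all 3 inside the peak of both replicates, at chr22:20085797-20085818, chr22:20086072-20086093 and chr22:20086112-20086129 on the plus strand. Capitals mark the seed, bases 2 to 8, which differs among the 3.
hsa-miR-3618: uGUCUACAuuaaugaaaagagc
hsa-miR-1306-5p: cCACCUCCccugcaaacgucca
hsa-miR-1306-3p: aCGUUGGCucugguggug

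The nearest GGAC to each DGCR8 summit is shown next, as 30 nt of hg38 on the plus strand with GGAC in capitals. The exon 2 interval covered by both replicates held 5 GGAC, and the one at chr22:20085868-20085897 lay 69 nt upstream of the replicate 1 summit. The 3′ UTR interval held 6, and the one at chr22:20110325-20110354 lay 4 nt upstream of it.
DGCR8 exon 2: cccgggtctcagcGGACttgtgcatgttag
DGCR8 3′ UTR: ggcctgaatggatGGACtcagcgactgcac

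DICER1 (ENSG00000100697.17, chr14:95086228-95158010, minus strand), the cytoplasmic RNase, had all of its exonic summits in the CDS, in the exons numbered 11, 24, 25 and 26 of 30. These numbers are those of the transcript with the longest CDS. On the Ensembl canonical transcript the same exons are numbered 8, 21, 22 and 23. Exon 24 (781 nt) had the strongest peak, with 11.2 in replicate 1 and 8.30 in replicate 2, a geometric mean above 87.6% of all exonic pairs. Exon 26 (889 nt, the longest internal exon) had 6.42 and 5.01, with the summits 1 bp apart. Exon 11 (473 nt) had 4.59 and 4.96. The short exon 25 (156 nt) lies between the longer exons and had a peak of 5.01 in replicate 1 alone. No summit of either replicate lay in the last exon, which is 4436 nt long and holds a 3′ UTR of 4270 nt. MIR3173, an annotated hairpin in a DICER1 intron, was 374 and 330 bp from the nearest peak, which was an intronic peak of 4.55 and 4.14.

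The strongest shared sites of DICER1 are shown as 121 nt centred on the replicate 1 summit, 5′ to 3′ on the minus strand of hg38, with GGAC in capitals. The exon 24 window, at chr14:95103541-95103661, holds no GGAC, and the nearest was 70 and 106 nt from the summits. The exon 26 window, at chr14:95096182-95096302, holds 1, which lay 4 and 5 nt from them.
DICER1 exon 24: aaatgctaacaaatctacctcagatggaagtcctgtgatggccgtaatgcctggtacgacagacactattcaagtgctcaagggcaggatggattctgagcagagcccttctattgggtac
DICER1 exon 26: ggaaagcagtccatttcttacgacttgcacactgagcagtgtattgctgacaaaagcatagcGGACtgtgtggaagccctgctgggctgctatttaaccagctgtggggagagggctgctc

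The Argonaute genes bind the mature microRNA, and most of their peaks were in the last exon. Of the exonic summits on the AGO transcripts, 9 of 12 in replicate 1 and 4 of 4 in replicate 2 were in the last exon, beside 50.4% and 59.3% of all exonic summits of protein-coding genes. None was in an internal exon of at least 400 nt. No such exon exists in these genes, whose longest internal exons measure 200 nt in AGO1 and AGO2, 209 nt in AGO3 and 316 nt in AGO4. The last exons are long, from 4394 nt in AGO4 to 16864 nt in AGO3, and start 106 nt upstream of the stop codon in all 4 canonical transcripts. They make up most of the transcript, which measures 7272 nt in AGO4 and 19660 nt in AGO3. The counts above make no allowance for this length and rest on few summits. Within them the shared peaks near the stop codon stood at like places. Summits were 113 and 129 nt past the first stop codon base in AGO3, 113 and 105 nt in AGO4, and 71 and 73 nt in AGO2.

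**Figure D3:**
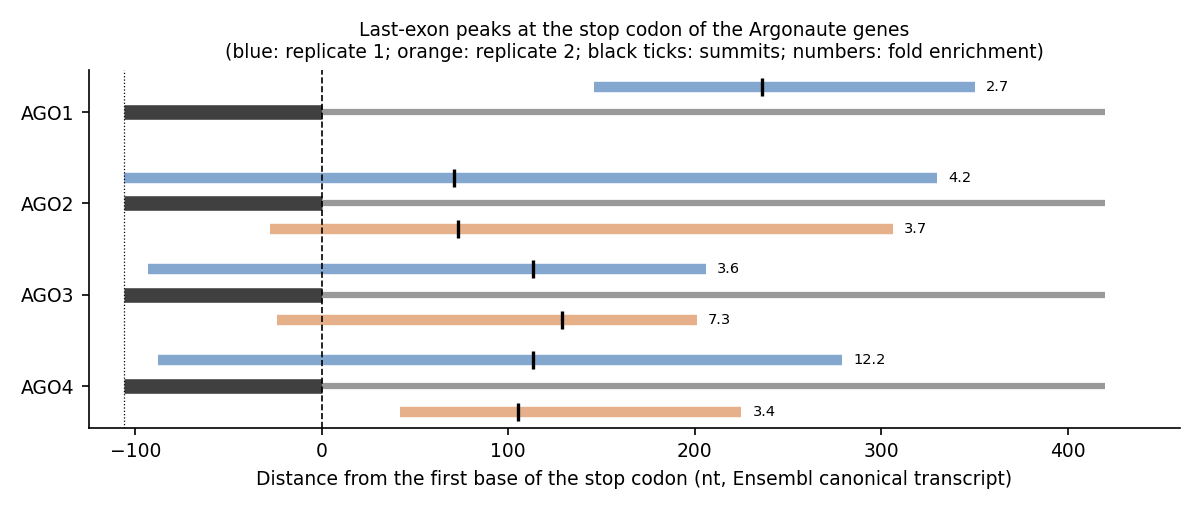
Last-exon peaks near the stop codon of AGO1 to AGO4, as distance in nt from the first stop codon base on the Ensembl canonical transcript, in replicate 1 (blue) and replicate 2 (orange). Black ticks are summits, numbers are fold enrichments, dark bars are CDS, grey bars are 3′ UTR and the dotted line is the last exon junction, 106 nt upstream; the shared summits of AGO2, AGO3 and AGO4 lie between 71 and 129 nt, and AGO1 has a peak in replicate 1 alone at 236 nt.

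AGO1 (ENSG00000092847.14, chr1:35869808-35930532), AGO3 (ENSG00000126070.20, chr1:35930718-36072500) and AGO4 (ENSG00000134698.11, chr1:35808016-35857890) lie beside each other on the plus strand. AGO1 had a single peak, of 2.71 in replicate 1 (−log10 q of 5.81), and 32.2% of the exonic replicate 1 peaks of like q were shared. Its summit was 236 nt after the stop codon of the canonical transcript and 134 nt after that of the transcript with the longest CDS, which GENCODE tags as a stop codon readthrough isoform. The AGO3 stop codon peak had 3.57 in replicate 1 and 7.33 in replicate 2, and the AGO4 peak had 12.2 and 3.43. They were thus ordered oppositely in the replicates, with log2 ratios of −1.04 and 1.83 that stood at percentiles 0.715 and 99.3 of the exonic pairs. AGO3 also had peaks of 3.76 in the 5′ UTR and 3.65 in the exon before the last, both in replicate 1 alone.

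The GGAC nearest to the AGO1 and AGO3 summits is shown as 30 nt of hg38 on the plus strand, with GGAC in capitals, at chr1:35919851-35919880 and chr1:36055817-36055846. It lay 25 nt downstream of the AGO1 summit and 24 nt upstream of the replicate 1 summit of AGO3. In AGO4 the wider replicate 1 peak held 2 GGAC, and the interval that both replicates covered held none.
AGO1: ccctgaccccactGGACcaaaaggggcagc
AGO3: gtcaattgagtaaGGACacctccagccata

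In AGO4 the distal 3′ UTR carried 2 further peaks in replicate 1, of 5.35 and 11.6, with summits 1768 and 2246 nt after the stop codon. The stronger (−log10 q of 18.2) was nearly as strong as the AGO4 stop codon peak and had a GGAC 8 nt from its summit, but replicate 2 lists no peak there. Of exonic replicate 1 peaks of like q, 80.2% were shared. It was the peak of lowest q among the 12 exonic peaks of these genes that replicate 1 alone had.

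AGO2 (ENSG00000123908.12, chr8:140520156-140635633, minus strand), the Argonaute known for slicing its targets, had the most peaks of its family, 5 in replicate 1 and 2 in replicate 2, and all lay below the median of their list. The stop codon peak had fold enrichments of 4.23 and 3.73 with summits 2 bp apart. A 3′ UTR peak had 3.75 and 2.71, with summits 1112 and 1121 nt after the stop codon. The log2 ratios of the pairs were 0.18 and 0.46, beside a median of 0.43 over all exonic pairs. The peaks of replicate 1 alone had 1.90 in the exon before the last, 2.74 at 644 nt and 3.35 at 10285 nt after the stop codon. No GGAC lay in the AGO2 stop codon peaks, whereas the shared 3′ UTR summits had one 23 and 32 nt away.

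The maps of the 10 transcripts set these positions side by side. On the transcript with the longest CDS, 11 of 30 summits in replicate 1 (36.7%) and 11 of 21 in replicate 2 (52.4%) lay in the CDS at more than 200 nt from the stop codon, against 49.2% and 48.0% of all exonic summits of protein-coding genes. Within 200 nt of the stop codon were 9 (exact 95% interval 14.7% to 49.4%) and 5 (23.8%, 8.22% to 47.2%), beside 24.4% and 27.0% over all. The 3′ UTR held 8 and 4, and the 5′ UTR held 2 and 1. Exons of at least 400 nt held 25 of 30 (83.3%) and 20 of 21 (95.2%), against 75.1% and 88.9% over all.

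**Figure D4:**
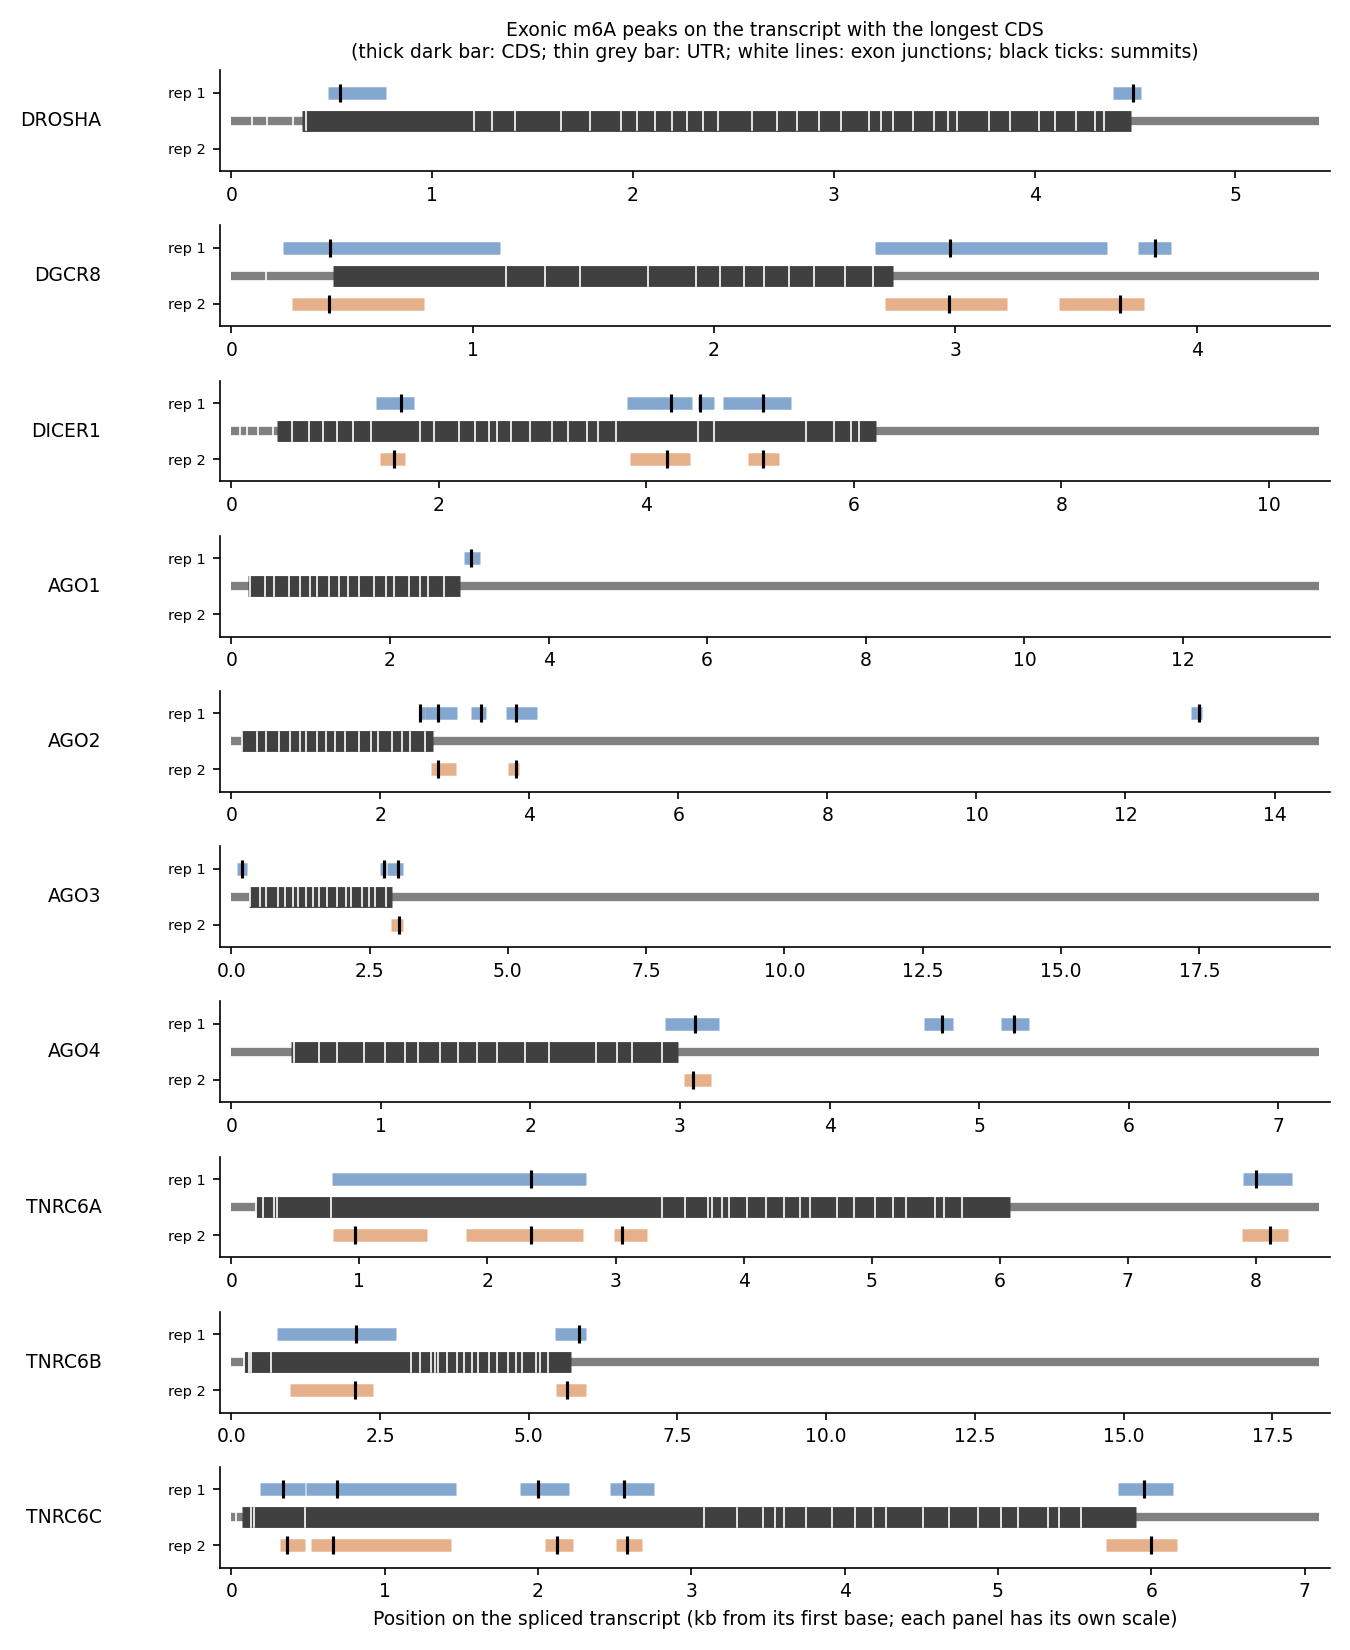
Exonic peaks of replicate 1 (blue, above) and replicate 2 (orange, below) on the spliced transcript with the longest CDS of each gene, in kb from its first base, with a scale of its own in each panel. Dark bars are CDS, grey bars are UTR, white lines are exon junctions and black ticks are summits. AGO peaks sit around the stop codon and beyond it, except for 1 AGO3 peak in the 5′ UTR, and the DICER1 peaks lie within the CDS. The TNRC6 peaks lie over the long internal coding exon and at the stop codon or in the 3′ UTR, except for the TNRC6C pair in exon 4.

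Internal exons of at least 400 nt were the class of exon in which these genes stood farthest from the lists as a whole. The class was picked for that distance. They held 10 of 30 summits in replicate 1 (33.3%, interval 17.3% to 52.8%) against 18.5% over all, and 11 of 21 in replicate 2 (52.4%, 29.8% to 74.3%) against 23.9%. The share over all lies inside the replicate 1 interval and outside that of replicate 2, which is no test of a class picked in this way. The intervals treat summits as separate, although several lie in the same exon, so they are too narrow. TNRC6A, TNRC6B and TNRC6C gave 5 of the 10 and 7 of the 11, and all the others were in DROSHA, DGCR8 and DICER1.

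TNRC6A (ENSG00000090905.19, chr16:24610209-24827632), TNRC6B (ENSG00000100354.21, chr22:40044817-40335808) and TNRC6C (ENSG00000078687.18, chr17:77958703-78108822), all on the plus strand, share a gene structure with a single very long coding exon near the start of the CDS. It measured 2586 nt in TNRC6A (exon 6), 2349 nt in TNRC6B (exon 5) and 2604 nt in TNRC6C (exon 5), and it carried peaks in both replicates in all 3 genes. Peaks of both replicates covered 63.6% of the exon in TNRC6A, 59.6% in TNRC6B and 47.8% in TNRC6C. Single peaks in the exon measured from 176 to 1992 nt, beside a median exonic peak of 314 bp in replicate 1 and 361 bp in replicate 2.

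In TNRC6A the exon 6 peak had fold enrichments of 17.9 and 13.9, the highest among the 10 genes in each replicate, with summits 3 bp apart. Its geometric mean of 15.8 stood above 99.0% of all exonic pairs. Replicate 1 called the first 1991 nt of the exon as a single peak, and replicate 2 called a peak of 6.72 and that of 13.9 over the same stretch, plus another of 3.73 that replicate 1 did not have. In TNRC6B a single peak per replicate lay in exon 5, with 9.65 and 6.28. It spanned nt 103 to 2094 of the exon in replicate 1 and nt 318 to 1716 in replicate 2. In TNRC6C 3 pairs lay in exon 5, of which the one near its start was the strongest, with 17.3 and 10.7. The others had 7.11 and 4.23, and 9.01 and 4.06.

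**Figure D5:**
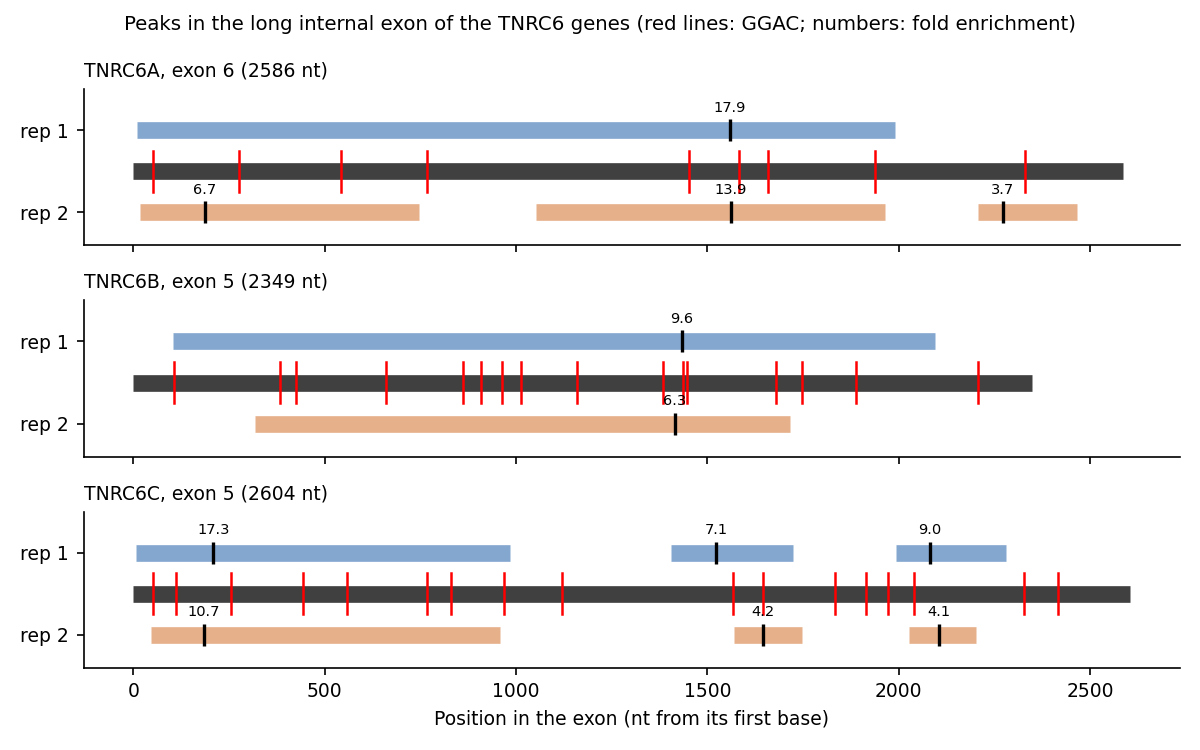
Peaks of replicate 1 (blue) and replicate 2 (orange) over the long internal exon of TNRC6A, TNRC6B and TNRC6C, in nt from the first base of the exon, with summits (black ticks), fold enrichments (numbers) and GGAC (red lines). TNRC6A and TNRC6B have their strongest summits between 1415 and 1561 nt. TNRC6C has its strongest at 209 and 184 nt, with weaker ones at 1523 and 1645 nt and at 2082 and 2106 nt.

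An alignment of the 3 exons put some of these summits at like places. The strongest TNRC6A summits fell in alignment columns 1672 and 1675, the TNRC6B summits in 1716 and 1697, and those of the second TNRC6C peak in 1652 and 1774. The strongest TNRC6C summits, in columns 224 and 199, lay beside the replicate 2 summit of the TNRC6A peak of 6.72, in column 204. The summits of the third TNRC6C pair, in columns 2214 and 2238, had no such counterpart. Nor did the replicate 2 summit of the TNRC6A peak of 3.73, in column 2445. The exons were 52.8% identical between TNRC6A and TNRC6B, 55.8% between TNRC6A and TNRC6C and 52.0% between TNRC6B and TNRC6C. Only a few GGAC were in the same column, 2, 5 and 2 for these pairs, of 9 in TNRC6A, 16 in TNRC6B and 17 in TNRC6C. GGAC stood in all 3 exons at columns 830 and 2102, and in TNRC6A and TNRC6C alone at columns 53, 1697 and 1773.

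The summit regions are printed to show these places, as 121 nt of hg38 on the plus strand centred on the replicate 1 summit, with GGAC in capitals. They lie at chr16:24790729-24790849, chr22:40266061-40266181, chr17:78050307-78050427 and chr17:78048993-78049113. The TNRC6A window and that of the second TNRC6C peak each hold the GGAC of column 1697. The TNRC6B window holds 3 GGAC, none in that column.
TNRC6A exon 6: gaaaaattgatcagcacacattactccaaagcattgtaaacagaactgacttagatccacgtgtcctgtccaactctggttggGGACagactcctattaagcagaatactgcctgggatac
TNRC6B exon 5: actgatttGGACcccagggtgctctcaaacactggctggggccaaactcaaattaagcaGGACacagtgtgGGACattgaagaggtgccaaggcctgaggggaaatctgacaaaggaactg
TNRC6C exon 5, second peak: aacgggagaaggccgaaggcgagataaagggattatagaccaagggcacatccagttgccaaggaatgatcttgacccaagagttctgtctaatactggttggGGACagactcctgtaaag
TNRC6C exon 5, strongest peak: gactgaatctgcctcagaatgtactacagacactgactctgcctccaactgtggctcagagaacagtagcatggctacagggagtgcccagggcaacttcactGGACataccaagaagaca

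The stop codon region or the 3′ UTR of the TNRC6 messages also carried shared peaks, at unlike places. The stop codon peak of TNRC6B had 9.66 and 9.83 and that of TNRC6C 8.91 and 9.18, both nearly equal between the replicates. The summits of TNRC6B were 139 nt after and 75 nt before the stop codon within nearly the same interval, and those of TNRC6C were 54 and 100 nt after it. TNRC6A had no listed peak at the stop codon but had a peak of 9.38 and 7.94 in the distal 3′ UTR, 1920 and 2028 nt after the stop codon. The nearest GGAC to the replicate 1 summit of TNRC6C is shown as 30 nt of hg38 on the plus strand, at chr17:78104873-78104902, where it lay 9 nt upstream.
TNRC6C stop codon: ccgacccctcccgGGACccctcccggctgg

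TNRC6C had the most exonic peaks of the 10 genes, 6 in each replicate. Of protein-coding genes with an exonic peak, 5.02% had at least that many in replicate 1 and 1.93% in replicate 2. These shares take no account of gene length, and TNRC6C has 11634 nt of exons. The number of peaks also depends on how wide stretches are split. For TNRC6A the like share was 58.3% with 2 exonic peaks in replicate 1 and 8.82% with 4 in replicate 2. Beside those described, it had a pair of 9.21 and 7.02 in exon 4 (327 nt) and a pair of 6.14 and 7.98 in the first exon of the canonical transcript (5′ UTR), 129 and 56 nt from the gene start. A further replicate 1 peak of 3.98 lay where the 3′ UTR of TNRC6C overlaps an exon of TMC6 and was assigned to TMC6, since the lists carry no strand.

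GGAC was searched within 50 nt of each exonic summit, reading the gene's own strand. It was present at 16 of 32 summits in replicate 1 and 11 of 22 in replicate 2 (50% each), near the shares over all exonic summits of protein-coding genes, 49.8% and 51.7%. Its reverse complement GTCC, searched in the same windows, was present at 8 and 4 of these summits, and at 31.4% and 29.6% of the summits over all. Over the 8 genes with peaks in both replicates, the transcript intervals that both covered held 53 GGAC in 8966 nt (5.91 per kb), and the parts outside every peak held 185 in 76230 nt (2.43 per kb). The density was higher inside in 6 of the 8 genes, the exceptions being AGO2 (2.06 against 3.23 per kb) and AGO4 (0 against 3.53). The pooled densities mix genes and transcript regions. AGO2, AGO3 and TNRC6B, with their long 3′ UTRs, gave 13302, 19069 and 15766 of the outside nt. Densities over all genes are not given here. A GGAC is a description of the sequence and does not mark a methylated base.

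A list of 29 other genes of the pathway was read in the same way. Exonic peaks in both replicates were found in 15 of them (51.7%). The share was 31.8% over all protein-coding genes and 47.8% over those with 7326 to 22151 nt of exons. The 29 genes had a median exonic length of 8704 nt, and some were shorter than that range. HNRNPA2B1 and ZSWIM8 had exonic peaks in replicate 1 alone. In neither replicate were they found in 12 genes, namely CNOT1, DDX5, FMR1, FXR1, LIN28B, MOV10, PABPC1, PRKRA, RAN, SRRT, TENT2 and TRIM71. The count of 15 fell to 6 at a fold enrichment of 5 or more, and the share over all genes at that cutoff is not given here. The strongest was PAN3, a subunit of a deadenylase that TNRC6 proteins recruit, with 23.1 and 7.39 at a summit 19 nt after the stop codon. TUT4 and TUT7, the uridylyltransferases that tail precursor microRNAs, had 9.49 and 11.4 and 7.83 and 8.33, both in the CDS part of a long exon (704 and 1088 nt). LIMD1, which binds Argonaute, had 10.4 and 5.99 in its first coding exon (1537 nt). DIS3L2, the exonuclease that degrades uridylated precursors, had 7.66 and 4.87 with the summit 38 nt before the stop codon.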

How the data were processed

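Peak lists of 2 m6A IP samples of OE-19 cells were analysed. The study's methods describe DNase-treated, fragmented total RNA, and the labels UV-fixed, lysed cells. The methods name TopHat2 and the submitters' processing notes fastp, HISAT2 and MACS2, with hg38. Releases, and whether input served as control in peak calling, are not given in the sources used here. For each peak the authors deposited fold enrichment, a ratio over the caller's background, a summit offset, and −log10 of the p-value and q-value. The deposited score was not used. The lists end at q = 0.05 and hold no read numbers, so depth is unknown and a missing peak is not a missing mark. Fold enrichment depends on the local background.

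Genes came from GENCODE 44. Exonic summits were given to the gene of the exon, with protein-coding genes first. Regions were read on the transcript with the longest CDS, where 30 of 32 and 21 of 22 exonic summits lay. The stop codon window held 200 nt on either side. Overlap was at least 1 bp. TNRC6 exons were aligned with MAFFT 7.526. MicroRNA sequences matched by name for both DGCR8 hairpins (RefSeq, GRCh38.p14). The named genes were the 10 members, hairpins within a member peak and, of the 29 other pathway genes, the 5 with the largest geometric mean fold enrichment, those with none by name only. The 2 seen in replicate 1 alone, and MIR3173, were named after their values were seen. Internal exons of at least 400 nt were also picked as a class after their values were seen. Members and lists were chosen with earlier results of these data known. No test was possible with 1 group of 2 lists, so counts stand beside those over all genes or peaks, with exact Clopper-Pearson intervals at 95%. Alternatives varied q, fold enrichment, overlap, windows, transcript, summit or midpoint, and the replicate. Scripts were tested on simulated data. Python 3.11.15, numpy 2.4.6, pandas 2.3.3, scipy 1.17.1, pysam 0.24.0 and matplotlib 3.10.9 were used.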

Additional observations from a re-analysis of the deposited data

How the results depend on the processing

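Of 71 alternative values, 56 stayed close to the reported one and 15 moved. Close meant within a band set for each kind of value, which for shares was the 95% Wilson interval of the reported share. That interval is wide on so few peaks. Only the log2 ratio could reverse in sign, and it did not. At a fold enrichment of 5 or more, 5 members and 6 of the 29 pathway genes had exonic peaks in both replicates. The share of replicate 2 peaks shared with replicate 1 was 68.2% with at least 50% of both peaks overlapping and 72.7% with summits within 100 bp. For replicate 1 peaks the share of 62.5% became 46.9% and 50% under these rules, which counted as close. The other shares were pooled over both lists. The median fold enrichment of 6.21 became 7.29 at q of 1e-05 or less, 8.98 with the strongest peak per gene, and 5.66 to 6.28 with a replicate left out. The stop codon window held 27.5% of summits, and 11.8% at 100 nt on each side. The 5′ UTR held 5.88%, and 1.96% with peak midpoints. Exons of at least 400 nt held 88.2% of summits, 94.9% of the shared ones and 83.3% to 95.2% with a replicate left out, and exons of at least 1000 nt held 70.6%. GGAC was near 50% of summits, near 37.0% of midpoints, and near 33.3% and 68.5% with windows of 25 and 100 nt. No paired analysis was possible because the input samples have no peak list here, so 1 group carries values. With 2 lists and unknown depth, a peak in replicate 1 alone cannot be told apart from one missed in replicate 2.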

Other observations

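Peaks in introns of these genes were few. DICER1 had a shared one, of 4.55 and 4.14, with summits 142 bp apart. TNRC6B had one of 5.62 in replicate 2 alone, and TNRC6C one of 4.57 in replicate 1 alone, 1006 nt from the gene start and with a GGAC 7 nt from its summit.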
